A study of Mus musculus with 7 samples.

Results

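Translation initiation factor genes were examined in mouse embryonic fibroblasts (MEFs), primary connective tissue cells from wild type embryos, under 6 stress conditions. The genes were chosen by symbol: all rows whose symbol starts with Eif and a digit, without the Eif2ak kinases and without pseudogenes marked as such. This gave 52 genes, of which 49 had a mean of at least 2 TPM (a transcript level corrected for length and scaled to a fixed library total, and so a share of the RNA) over the 7 libraries. Those 49 comprised 47 genes called initiation factors here by their symbol and 2 genes for 4E-binding proteins, which restrain a factor. They were taken from 12909 genes of 49382 that passed the same filter. A symbol does not establish the role, and Eif4a3 and Eif4enif1 are described below by other roles. The 3 genes under the filter were Eif4ebp3 with a mean of 0.835 TPM, Eif4e1b with 0.0325 TPM and Eif2c5, an older symbol of the Argonaute family, with 0.0306 TPM. The lowest genes above it were Eif4e3 with a mean of 4.59 TPM and Eif5a2 with 6.79 TPM.

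The MEFs were left untreated (control) or received 10 µM sodium arsenite for 3 h (oxidative stress), 100 mM added sodium chloride for 3 h (osmotic stress), 1 µM thapsigargin for 10 h (ER stress), medium without glucose or without glutamine for 10 h, or 0.1% oxygen for 10 h (hypoxia). Thapsigargin blocks the calcium pump of the endoplasmic reticulum (ER). The study's methods state that MEFs came from male and female embryos. Each condition had 1 library, so no test, p-value or error can be given, every difference below is between 2 libraries, and all 6 comparisons share the 1 control library. The age of the control culture at harvest is not given in the sources used here, and the treatments lasted either 3 h or 10 h, so condition and duration cannot be told apart.

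Initiation is the step at which a ribosome is brought to the start codon of an mRNA. In textbook terms, eIF4E binds the cap, eIF4G bridges it to the ribosome and eIF4A unwinds the leader, which together make the eIF4F complex. The small subunit carries eIF3, eIF1, eIF1A and eIF5, and eIF2 delivers the initiator tRNA bound to GTP. eIF2B then recharges eIF2, and phosphorylation of eIF2 by stress-activated kinases blocks that recharging. 4E-binding proteins sequester eIF4E unless mTORC1 phosphorylates them. Both of these controls act on protein, so mRNA levels do not measure them.

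All 7 fibroblast markers examined were present, and their summed level ran from 6121 TPM in ER stress to 12711 TPM in hypoxia, against 11317 TPM in control. The 3 macrophage markers summed to between 0.819 and 2.36 TPM and the 2 endothelial markers to between 0.128 and 1.14 TPM, while the epithelial pair reached 10.6 TPM through Krt18, with Epcam at or near 0. The 2 hemoglobin genes were at 0 apart from 0.503 TPM in oxidative stress. Mitochondrially encoded transcripts made up 5.09% (ER stress) to 9.25% (oxidative stress) of a library. TPM is a share, so a gene whose share is higher cannot be told apart from a gene held level while other RNA was lost.

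Initiation factor mRNAs were abundant, and few of them passed 2-fold in any condition. Changes are log2 of (TPM + 1) against control unless given as TPM, and past 2-fold means above 1 or below -1 on that scale, which understates the change of low genes. In ER stress 4 of the 49 genes were up past 2-fold, namely Eif4ebp1, Eif1, Eif1a and Eif5. That is 8.16%, close to the 8.6% of all 12909 genes, so the count by itself does not set these genes apart. None was down past 2-fold in ER stress, where 11% of all genes were. In hypoxia Eif2b3 was the 1 gene down past 2-fold (2.04% of the genes, against 2.64% of all genes), and none was up, against 3.57%.

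No initiation factor gene passed 2-fold in either direction in the other 4 conditions. The shares of all genes up and down there were 3.94% and 4.85% with arsenite, 3.08% and 8.76% with sodium chloride, 1.83% and 2.41% without glucose, and 3.21% in each direction without glutamine. Most genes under study are highly expressed. Among all genes at a mean of 10 TPM or more the shares past 2-fold in ER stress were 7.67% up and 9.47% down. In hypoxia they were 2% up and 1.49% down. At that level they were 2.63% up and 2.83% down with arsenite and 1.79% and 4.92% with sodium chloride. Without glucose they were 0.748% and 1.04%, and without glutamine 2.43% and 1.61%.

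**Figure D1:**
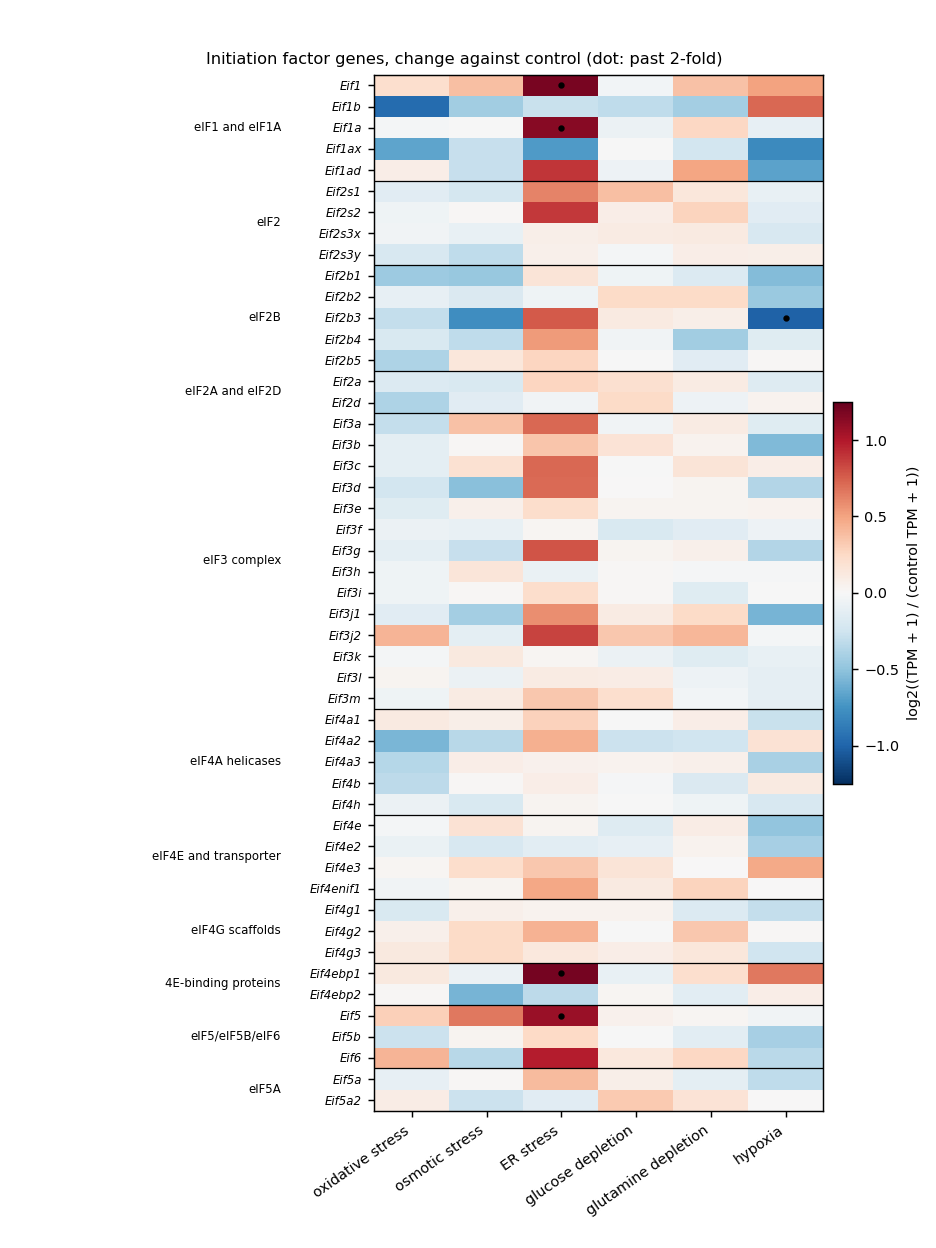
Change of each of the 49 genes (rows, grouped by factor complex) in each condition (columns), as log2((TPM + 1) / (control TPM + 1)), with 1 library per condition and a dot on each change past 2-fold. The ER stress column holds 4 of the 5 dots and the hypoxia column the other, on Eif2b3.

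At the milder threshold of 1.5-fold, ER stress had the most genes up, both among the 49 and among all genes. In ER stress 14 genes were up past 1.5-fold (28.6%, against 19% of all genes and 18.5% of genes at a mean of 10 TPM or more), and only Eif1ax was down (2.04%, against 21.3%). The 14 were Eif1, Eif1a, Eif1ad, Eif2b3, Eif2s1, Eif2s2, Eif3a, Eif3c, Eif3d, Eif3g, Eif3j2, Eif4ebp1, Eif5 and Eif6. They cover scanning, tRNA delivery, the eIF3 scaffold and subunit joining, with no gene for eIF4A, eIF4E or eIF4G among them.

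Few genes passed 1.5-fold elsewhere. In oxidative stress none was up (7.27% of all genes) and Eif1ax and Eif1b were down (4.08%, against 16.2%). In osmotic stress Eif5 was up (2.04%, against 6.56%) and Eif2b3 was down (2.04%, against 19.5%). Hypoxia had Eif1b and Eif4ebp1 up (4.08%, against 7.23%) and Eif1ad, Eif1ax and Eif2b3 down (6.12%, against 8.1%). Glucose depletion and glutamine depletion had none in either direction, where 3.47% and 7.47% of all genes were up and 6.23% and 10.6% were down.

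The whole group leaned upward in ER stress. The median change of the 49 genes was 0.27 there, with quartiles of 0.05 and 0.71, against a median of 0.00 for all genes, and 41 of 49 (83.7%) were above their control level compared with 49.9% of all genes. In hypoxia the median was -0.12 against -0.05 for all genes, and 15 of 49 (30.6%) were above control compared with 42.8%. The medians were near 0 without glucose (0.01, all genes -0.02) and without glutamine (0.05, all genes -0.09). For the 3 h treatments, arsenite and sodium chloride, they were -0.08 and -0.07, but the median of all genes lay at -0.16 and -0.12, so relative to it the group stood at 0.07 and 0.05.

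As a share of all RNA, the 49 genes summed to 8910.2 TPM in control. They summed to 12304 TPM in ER stress, 138% of control, and to 8386 TPM in hypoxia, 94.1% of control. The sums in the other 4 libraries, from 8588 to 9288 TPM, lay close to control. The fibroblast marker sum, which holds 3 collagen genes, was lowest in the same ER stress library. The part of that lower share in the higher sum of the 49 genes was not tested.

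Ranking each gene over the 7 libraries does not depend on the control alone. ER stress held the highest level of 32 of the 49 genes (65.3%), compared with 33.2% of all genes. Hypoxia held the lowest level of 23 (46.9%), compared with 12% of all genes, including Eif4e, Eif4a1, Eif4g1 and Eif5a. Once the median of all genes was subtracted in each library, ER stress was highest for 22 genes (44.9%, against 26.1% of all genes) and hypoxia lowest for 24 (49%, against 14.1%).

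The other libraries were the highest or lowest for smaller shares of the genes. The share highest was 2.04% in control (all genes 11.7%), 0% in oxidative stress (7.59%), 12.2% in osmotic stress (13.5%), 4.08% without glucose (9.16%), 8.16% without glutamine (9.13%) and 8.16% in hypoxia (15.7%). The share lowest was 2.04% in control (6.51%), 18.4% in oxidative stress (18.8%), 16.3% in osmotic stress (22.5%), 2.04% in ER stress (24.1%), 8.16% without glucose (6.45%) and 6.12% without glutamine (9.68%). The single genes in this list were Eif1ax, highest in control, Eif4e3, lowest in control, and Eif3h, lowest in ER stress.

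**Figure D2:**
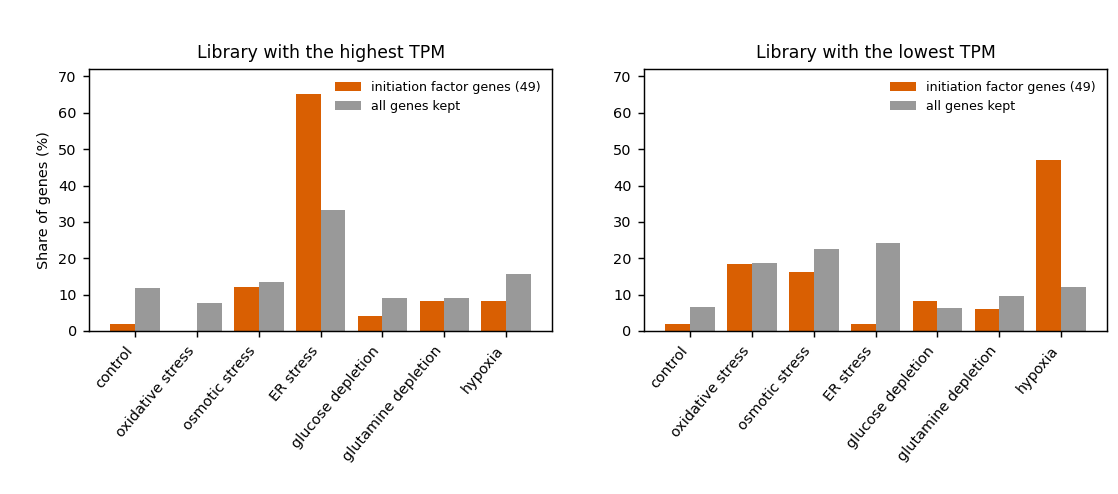
Share of genes (%) whose highest (left) or lowest (right) TPM lay in each of the 7 libraries. Orange marks the 49 genes under study, 2 of them for 4E-binding proteins, and grey all 12909 genes kept. The orange bars stand at 65.3% for highest in ER stress and 46.9% for lowest in hypoxia, above grey bars of 33.2% and 12%.

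The scanning factors eIF1 and eIF1A, which hold the ribosome open while it searches for a start codon, included close relatives that took different courses. Eif1 (ENSMUSG00000035530, chr11:100319885-100322096, plus strand, GRCm38) stood at 536 TPM in control, 618 in oxidative stress, 695 in osmotic stress, 1222 in ER stress, 523 without glucose, 691 without glutamine and 758 in hypoxia. ER stress was the highest library and 5 of the 6 conditions lay above control. Its change in ER stress was 1.19, a size that 6% of all genes reached in that direction. Against the median of the other conditions in place of the control library it was 0.82, short of 2-fold, since several conditions exceeded control. The Eif1 transcripts shared 23.0% of their sequence words of 31 bases with transcripts of other genes, so reads could be split among them.

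Eif1b, a close paralog of Eif1, followed another course. It was at 62.2 TPM in control, 31.4 in oxidative stress, 45.9 in osmotic stress, 51.0 in ER stress, 49.8 without glucose, 46.2 without glutamine and 103 in hypoxia. It was therefore above control in hypoxia alone (0.72) and lowest in oxidative stress (-0.96). The Eif1b share of the summed Eif1 and Eif1b level was 10.4% in control, 4.83% in oxidative stress, 4.01% in ER stress and 12.0% in hypoxia.

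The 2 genes for eIF1A also moved apart. Eif1a (ENSMUSG00000057561) was at 186 TPM in control, 182 in oxidative stress, 185 in osmotic stress, 409 in ER stress, 176 without glucose, 222 without glutamine and 173 in hypoxia, so ER stress stood alone. Its change there was 1.14, reached by 6.71% of all genes. The X-linked Eif1ax was at 120.5 TPM in control, 75.7 in oxidative stress, 98.7 in osmotic stress, 73.4 in ER stress, 120.2 without glucose, 103 without glutamine and 68.9 in hypoxia, with no condition above control.

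The change of Eif1ax was -0.71 in ER stress, -0.80 in hypoxia and -0.66 in oxidative stress. Its share of the summed eIF1A level was 39.4% in control and 15.2% in ER stress, while the sum itself stood at 158% of control. Few words of 31 bases were shared with other genes for Eif1a (4.51%) or Eif1ax (0.8%). Eif1ad, which encodes a protein with an eIF1A-like domain, was at 21.6 TPM in control, 40.9 in ER stress, 30.8 in glutamine depletion and 13.2 in hypoxia, with the other 3 libraries between 17.4 and 22.9 TPM. It was thus highest in ER stress and lowest in hypoxia.

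**Figure D3:**
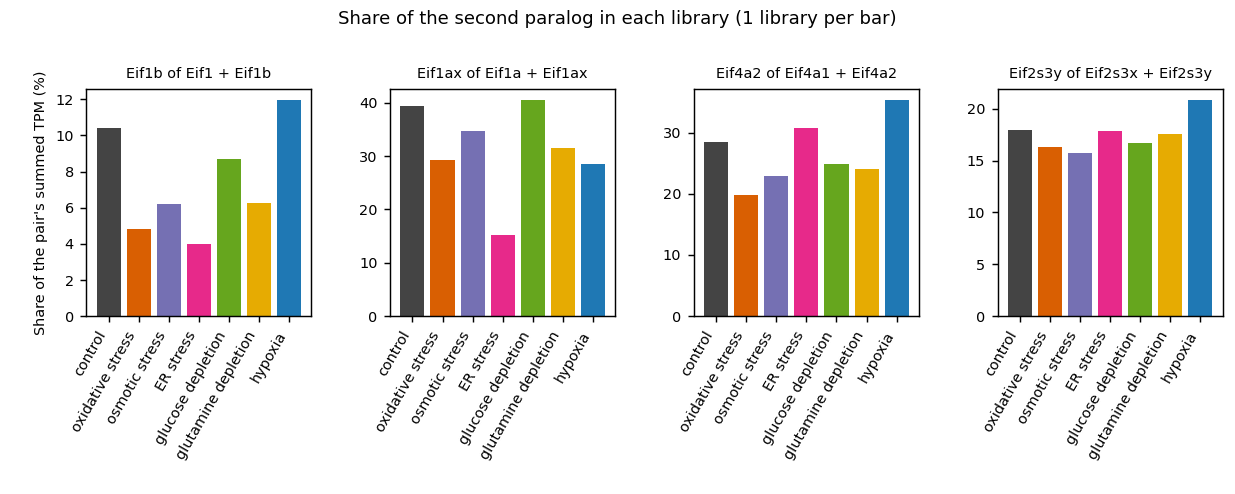
Share of the summed TPM of 4 paralog pairs (%) held by the second gene, with 1 bar per library. Eif1ax held 39.4% in control and 15.2% in ER stress, whereas Eif2s3y stayed between 15.7% and 20.9% in all 7 libraries.

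The subunit joining group held 2 further genes that were high in ER stress. Eif5 (ENSMUSG00000021282, chr12:111538016-111546752, plus strand) encodes the GTPase activator of eIF2. It was at 226 TPM in control, 277 in oxidative stress, 359 in osmotic stress, 477 in ER stress, 234 without glucose, 231 without glutamine and 219 in hypoxia. The change was 1.07 in ER stress, reached by 7.46% of all genes, and 0.66 in osmotic stress, the largest increase of any member there.

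Eif6, which keeps the large ribosomal subunit from joining too early, was at 112 TPM in control, 151 in oxidative stress, 87.6 in osmotic stress, 222 in ER stress, 123 without glucose, 134 without glutamine and 88.3 in hypoxia. Its change of 0.98 in ER stress lay just short of 2-fold, and it was also the member most above control in oxidative stress (0.43). Eif5b, the GTPase that joins the subunits, varied less, from 49.4 TPM in hypoxia to 79.2 TPM in ER stress. Together these 3 genes summed to 192% of control in ER stress and 88.2% in hypoxia.

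**Figure D4:**
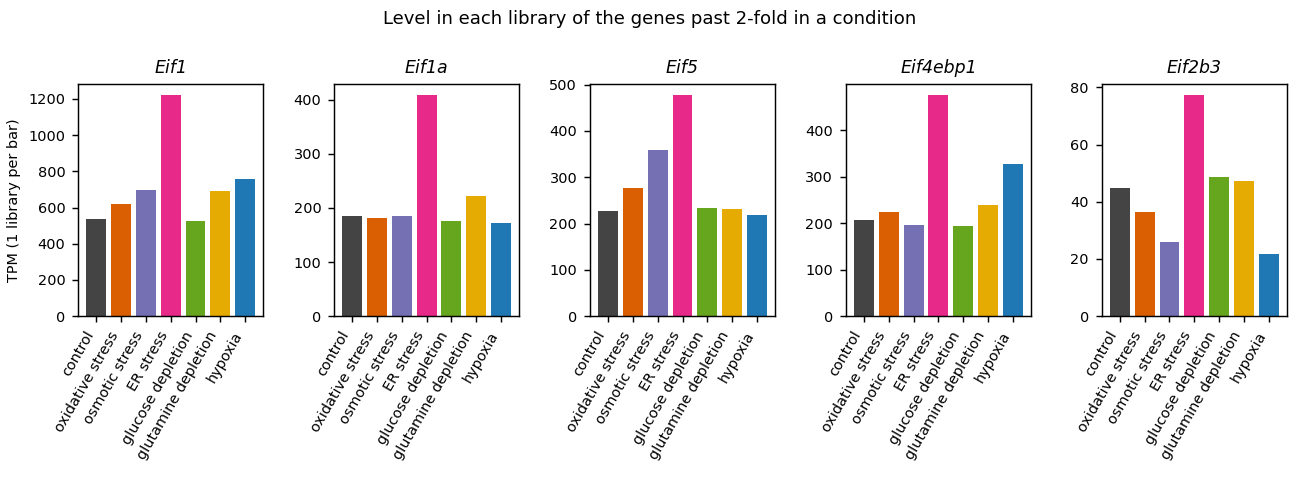
TPM of the 5 genes past 2-fold in any condition, with 1 bar per library and each axis starting at 0. ER stress is the highest bar for all 5 genes (1222 TPM for Eif1). Hypoxia is the lowest for Eif2b3 (21.8 TPM), Eif1a (173 TPM) and Eif5 (219 TPM).

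Promoter sequence was examined because several of these genes moved together. RefSeq promoters (GRCm38.p6) were matched for 39 of the 49 genes and searched on both strands, over the 250 bases before the start, for 6 motifs picked with the changes already known. The 10 unmatched genes were Eif1a, Eif2b3, Eif3e, Eif3h, Eif3i, Eif3j2, Eif4e3, Eif4ebp1, Eif4g2 and Eif6, so 3 of the 5 genes past 2-fold were not searched. The unfolded protein response element core TGACGTGG, bound by ATF6 and XBP1, was present in Eif3a alone, which is 2.56% of the genes, compared with 0.603% of all promoters and 0.921% of those of genes kept here. The ATF4 composite element TGATGNAA was present in Eif2s3x alone (2.56%, between 3.91% of all promoters and 2.25% of those of kept genes). The cAMP response element TGACGTCA (1.77% of all promoters, 3.18% of those of kept genes) and the ER stress response element known as ERSE (0.13% and 0.166%) were in none of the 39. The hypoxia response core ACGTG was in 18 genes (46.2%, against 18.5% of all promoters and 25.6% of those of genes kept here). Of these, Eif1b (0.72), Eif1 (0.50), Eif4ebp2 (0.08) and Eif5a2 (0.005) were above control in hypoxia and all the others were below it. A link of the core to levels in hypoxia was not tested. The E-box CACGTG, which contains that core and is bound by Myc and related factors, was in 9 genes (23.1%, against 6.86% and 10.3%). The 9 matched genes up past 1.5-fold in ER stress included 5 with the core and 0 with the E-box. The other 30 matched genes included 13 with the core and 9 with the E-box. In Eif3a the core match lies within the unfolded protein response core. All of the above are matches of letters, not shown binding sites. GENCODE M21 starts Eif1, Eif1b and Eif5 upstream of the RefSeq starts, so the 4 stretches of these genes printed here lie inside the gene as GENCODE draws it. The stretches below are those of Eif1, Eif1b and Eif5 around the core or E-box, 3 of the genes with uneven levels described above, with the motif in capitals, on the plus strand at chr11:100319908-100319937, chr9:120492423-120492452, chr9:120492570-120492599 and chr12:111538080-111538109.
Eif1, core: gggtggggccgagACGTGagggcagcgcgc
Eif1b, core: agacccccgggggCACGTttctcgccgttg
Eif1b, E-box: cgtgcggacggtCACGTGgcggcggcgcgc
Eif5, core: aagcgtgagatcgACGTGcatgcgagccaa

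The upstream region of Eif3a is shown as the 1 promoter with the unfolded protein response core, here in capitals and read as its reverse complement, 97 bases before the start, at chr19:60790694-60790943 on the minus strand.
Eif3a: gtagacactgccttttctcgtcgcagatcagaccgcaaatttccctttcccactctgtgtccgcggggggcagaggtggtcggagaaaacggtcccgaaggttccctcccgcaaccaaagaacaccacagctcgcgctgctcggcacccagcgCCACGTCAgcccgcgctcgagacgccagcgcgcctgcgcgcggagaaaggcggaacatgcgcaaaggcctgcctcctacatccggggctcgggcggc

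The eIF2 complex, which carries the initiator tRNA, was higher in ER stress through its alpha and beta subunits. Eif2s1, whose product is the phosphorylated alpha subunit, was at 75.2 TPM in control and 117 in ER stress, with the other 5 libraries between 64.5 and 97.7 TPM. Eif2s2 (beta) was at 160.2 TPM in control and 296 in ER stress, with the other 5 between 145 and 195 TPM. Both were therefore highest in ER stress, with changes of 0.62 and 0.88. The gamma subunit genes changed less, at 0.08 for Eif2s3x and 0.06 for the Y-linked Eif2s3y, which stood at 134 and 29.1 TPM. Eif2s3x shared 35.6% of its words of 31 bases with other genes, and Eif2s3y 0.45%. Of the alternative tRNA delivery factors, Eif2a was at 0.27 and Eif2d at -0.04 in ER stress.

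The genes for eIF2B, the exchange factor that recharges eIF2, summed to 74.2% of control in hypoxia, the lowest such percentage of any group. In ER stress their sum was 126% of control. Eif2b3 (gamma subunit, ENSMUSG00000028683, chr4:117019402-117087306, plus strand) was at 44.9 TPM in control, 36.4 in oxidative stress, 25.9 in osmotic stress, 77.3 in ER stress, 48.5 without glucose, 47.2 without glutamine and 21.8 in hypoxia. It had the widest span over the conditions of any member, 1.78 on the log2 scale, from -1.01 in hypoxia to 0.77 in ER stress. The hypoxia change just passed 2-fold, a size reached by 2.6% of all genes, and did not pass it with a pseudocount of 5 TPM (-0.90) or after subtraction of the median of all genes (-0.96).

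The other 4 subunit genes did not share that pattern in full. In hypoxia Eif2b1 was at -0.54 and Eif2b2 at -0.46, while Eif2b4 (-0.15) and Eif2b5 (0.02) were nearer to control. In ER stress Eif2b4 was at 0.54 and Eif2b5 at 0.27, against 0.16 for Eif2b1 and -0.05 for Eif2b2. Levels of these 4 genes lay between 20.6 TPM (Eif2b4 in glutamine depletion) and 79.1 TPM (Eif2b2 in glutamine depletion). Thus subunits of 1 complex had unequal mRNA changes in the same library.

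The 14 genes of eIF3, the large scaffold on the small ribosomal subunit, summed to 2669 TPM in control, 128% of that in ER stress and 92.3% in hypoxia. The 8 genes of the octamer core, subunits a, c, e, f, h, k, l and m, were at 116 to 347 TPM in control. Their median change was 0.16 in ER stress, 0.11 in osmotic stress and -0.08 in hypoxia. The 6 genes outside the core, subunits b, d, g, i and the pair for j, had medians of 0.64, -0.21 and -0.37. The genes outside the core thus had medians farther from 0 in each of these 3 libraries, a grouping with no test and few genes. Both genes of the pair for j count in these medians, although they could not be read apart with confidence.

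Within the core, Eif3a (0.71) and Eif3c (0.72), whose products nucleate the complex, were well above control in ER stress. Eif3e (0.22), Eif3f (0.02), Eif3h (-0.08), Eif3k (0.02), Eif3l (0.10) and Eif3m (0.33) were closer to it. Eif3a was also the core gene highest in osmotic stress (0.37) and lowest in oxidative stress (-0.30). Eif3h, Eif3f and Eif3l were among the steadiest genes, with spans over the 6 conditions of 0.23, 0.22 and 0.22. Of the words of 31 bases in Eif3h, 29.4% also occur in other genes.

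Outside the core, Eif3d encodes a subunit that can itself bind the cap of some mRNAs. It was at 163 TPM in control, 139.6 in oxidative stress, 114 in osmotic stress, 267 in ER stress, 164 without glucose, 167 without glutamine and 126 in hypoxia. Eif3g ran closely beside it, at 169 TPM in control, 138 in osmotic stress, 293 in ER stress and 132 in hypoxia. Both were high in ER stress and low in osmotic stress and hypoxia, although 40.2% of the words of 31 bases in Eif3d also occur in other genes. Eif3b was lower in hypoxia (174 TPM, against 254 in control), whereas Eif3i was at 226 TPM in both.

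The pair for subunit j, a loosely bound factor, could not be read apart with confidence. Eif3j2 shared 94.9% and Eif3j1 53.6% of their words of 31 bases with other genes, mainly with each other. Eif3j2 was listed at 55.6 TPM in control and 101 in ER stress (0.85) and Eif3j1 at 12.6 and 19.3 TPM (0.58). In oxidative stress they took opposite directions, at 0.42 and -0.15.

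**Figure D5:**
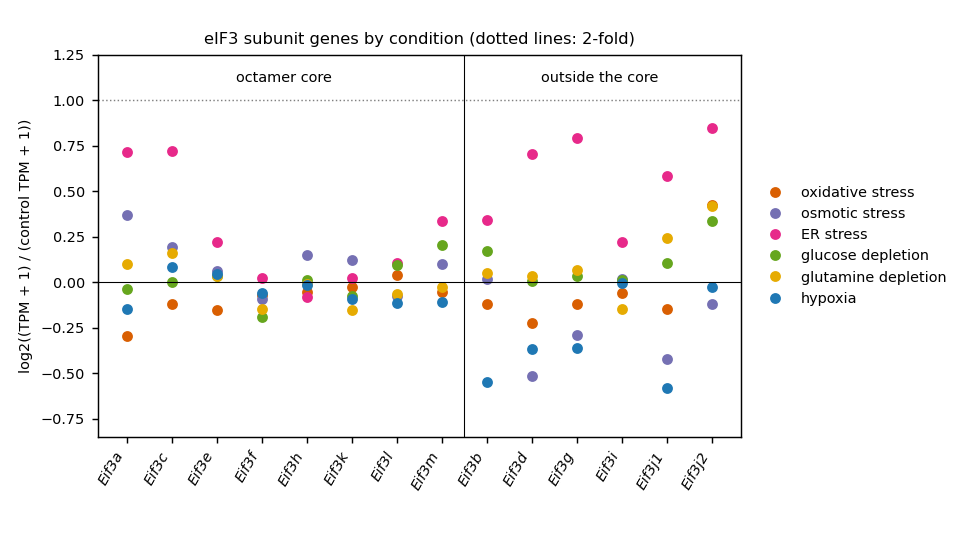
Change of each eIF3 subunit gene in the 6 conditions, as log2((TPM + 1) / (control TPM + 1)), with 1 point per library and the octamer core on the left. In ER stress the points reach 0.72 in the core (Eif3c) and 0.85 outside it (Eif3j2), and all stay under the dotted 2-fold line.

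The eIF4F genes, which recognise and unwind the capped end of the mRNA, had no member past 1.5-fold in ER stress. The sums of the groups were 118% of control there for eIF4A with its cofactors, 125% for eIF4G and 102% for eIF4E with its transporter. The helicase gene Eif4a1 was at 548 TPM in control, 670.3 in ER stress and 450.3 in hypoxia, with the other 4 libraries between 545 and 592 TPM. Its paralog Eif4a2 was at 218 TPM in control, 147 in oxidative stress, 171 in osmotic stress, 297 in ER stress, 181 without glucose, 183 without glutamine and 246 in hypoxia. The Eif4a2 share of the pair was lowest in oxidative stress (19.9%) and highest in hypoxia (35.4%), compared with 28.5% in control. The pair leaves out the pseudogene row Eif4a-ps4, which shares 25.6% of the words of 31 bases in Eif4a1. Eif4a2 shared 19.6% of its words with other genes, and the effect of either on the share was not tested. Eif4a3, a helicase of the exon junction complex, was at -0.41 in hypoxia and -0.36 in oxidative stress, and shared 31.2% of its words. The cofactor genes Eif4b and Eif4h were within 0.09 of control in ER stress, and Eif4b was at -0.33 in oxidative stress.

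The cap-binding protein gene Eif4e was at 174 TPM in control and 178 in ER stress, and at 124 in hypoxia, the lowest library, where its change was -0.49. Eif4e2, which encodes a cap-binding homolog used in hypoxic translation and in repression, was also lowest in hypoxia, at 153 TPM against 205 in control. The low Eif4e3 was at 3.91 TPM in control and 5.82 TPM in hypoxia. Eif4enif1, which carries eIF4E into the nucleus, was at 0.48 in ER stress and 0.00 in hypoxia. The 4 genes summed to 76.8% of control in hypoxia.

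Among the eIF4G scaffolds, Eif4g2 (also called DAP5, which lacks the eIF4E-binding part) was the most abundant, at 802 TPM in control, 1087 in ER stress and 1010.5 in glutamine depletion. It held between 66.6% and 73.9% of the summed scaffold level. Eif4g1, the main scaffold, was at 337 TPM in control and lowest in hypoxia, at 274 TPM. Eif4g3 stayed between 43.2 TPM (hypoxia) and 60.9 TPM (osmotic stress).

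The 4E-binding proteins were read apart because they act against initiation. Eif4ebp1 (ENSMUSG00000031490, chr8:27260329-27276674, plus strand) was at 207 TPM in control, 224 in oxidative stress, 197 in osmotic stress, 476 in ER stress, 194 without glucose, 238 without glutamine and 327 in hypoxia. It had the largest increase of the 49 genes in ER stress, 1.20, a size reached by 5.9% of all genes, and was at 0.66 in hypoxia. Eif4ebp2 did not accompany it, at 35.8 TPM in control, 36.2 in oxidative stress, 23.6 in osmotic stress, 28.4 in ER stress, 36.4 without glucose, 32.6 without glutamine and 37.8 in hypoxia. Eif4ebp3 stayed at or under 1.56 TPM in all 7 libraries and was listed at 0 in hypoxia.

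Set beside its target, the 4E-binding protein mRNA was higher in both ER stress and hypoxia. The summed level of Eif4ebp1 and Eif4ebp2 was 208% of control in ER stress, where Eif4e, Eif4e2 and Eif4e3 together were at 96.7%. Eif4e alone was slightly above control there, at 178 TPM against 174, and Eif4e2 was below it, at 187 TPM against 205. The binding protein sum was 151% of control in hypoxia, where the 3 cap-binding genes were at 73.8%. In the 4 other conditions the binding protein sum stayed between 90.9% and 112% of control.

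Eif5a, whose hypusinated product aids elongation and termination as well, was the most abundant of the 49 genes in control, at 1084 TPM, with 1431 in ER stress and 869.5 in hypoxia. In glutamine depletion it was at 994 TPM, below the 1010.5 TPM of Eif4g2. Its paralog Eif5a2 stayed between 5.31 and 8.50 TPM and did not follow it, at -0.14 in ER stress. The 5 highest genes in control were Eif5a, Eif4g2, Eif4a1, Eif1 and Eif3h, and the lowest was Eif4e3.

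Of 47 other genes of the translation machinery, all passed the filter and few passed 2-fold. In ER stress 2 were up and 2 down, where 8.6% and 11% of all genes were, and in osmotic stress 1 was up, where 3.08% were. In ER stress Ppp1r15a (GADD34, which directs dephosphorylation of eIF2) was at 514 TPM against 38.8 in control, a change of 3.70. The eIF2 kinase gene Eif2ak3 (PERK) was up at 1.03, the kinase gene Eif2ak2 (PKR) was down at -1.04 and Mknk2, a kinase of eIF4E, was down at -1.38. Ppp1r15a was also up in osmotic stress, at 154 TPM, a change of 1.96. No gene of this list passed 2-fold in oxidative stress, glucose depletion, glutamine depletion or hypoxia. Their median was 0.29 in ER stress and -0.11 in hypoxia. It stood beside 0.27 and -0.12 for the 49 genes under study and 0.00 and -0.05 for all genes.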

How the data were processed

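RNA-seq libraries (stranded mRNA, paired-end) were made by the authors from 7 MEF cultures, 1 per condition. The authors quantified reads with Kallisto (0.43.1 in the submitters' processing notes) at default settings on GRCm38 cDNA and deposited 1 TPM value per gene, the total of its transcripts. No read counts are used here, so depth is unknown and no counting interval can be given.

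Here each deposited TPM was increased by 1, taken to log2 and compared with control by subtraction. Pseudocount and 2-fold rule follow the study's methods. Genes averaging 2 TPM or more were kept, and locations are from GENCODE M21 (GRCm38). Shared words of 31 bases were counted over GENCODE M21 transcripts, which may differ from the annotation the authors used. Members and lists were chosen with earlier results of these data known. Named genes are those past 2-fold, the most changed of each condition, the 4E-binding proteins, the eIF1 relatives, the paralog sets and the most abundant gene of each complex. Other members are named as parts of their complex, with their values known. The scripts were tested on simulated data. Alternatives were pseudocounts of 0.1 and 5 TPM, no filter, a filter of 10 TPM, thresholds of 1.5-fold and 3-fold, centring, removal of mitochondrial genes and the median of the other conditions as reference. Python 3.11.15 and pandas 2.3.3 were used.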

Additional observations from a re-analysis of the deposited data

How the results depend on the processing

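With 1 library per condition no replicate can be left out, and how far a second culture would differ is unknown. No paired analysis was possible because each condition has 1 library. Counts past a threshold moved with the threshold: at 1.5-fold, 2 genes were down in oxidative stress, 1 was up and 1 down in osmotic stress, 14 were up and 1 down in ER stress, and 2 were up and 3 down in hypoxia, while at 3-fold both ER stress up and hypoxia down became 0. The single gene down in hypoxia, Eif2b3, became 0 genes with a pseudocount of 5 TPM or after centring on the median of all genes, and 2 genes with no filter, when Eif4ebp3 joined it. With the median of the other conditions as reference, 1 gene was up in hypoxia (Eif1b), the hypoxia median was -0.22 and Eif1 in ER stress was at 0.82, while Eif2b3 passed 2-fold in ER stress (1.07) and kept the count at 4. Centring turned the medians of oxidative stress (0.0726) and osmotic stress (0.0497) positive and left that of hypoxia negative (-0.0685). Removal of mitochondrial genes, a pseudocount of 0.1 TPM and a filter of 10 TPM moved no count past 1.5 times and no median by more than 0.1. Eif1a, Eif4ebp1 and Eif5 in ER stress stayed past 2-fold under all 5 alternatives computed for single genes, with lowest values of 1.12, 1.08 and 1.02. The counts of genes highest in ER stress (22 to 32) and lowest in hypoxia (22 to 24) were recomputed under alternatives chosen after seeing the data: centring, removal of mitochondrial genes, a filter of 10 TPM and leaving out the control library.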

Other observations

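Some genes for translation termination and ribosome rescue, chosen here after their values were seen, were above control in ER stress. Etf1, the release factor that reads stop codons, was at 104 TPM in control and 199.7 in ER stress (0.93). Hbs1l and Pelo, which together release stalled ribosomes, were at 46.2 and 24.2 TPM in control and at 93.0 and 46.6 TPM in ER stress, changes of 0.99 and 0.92, whereas Gspt1, the partner of Etf1, was at 0.39. None of the 4 passed 2-fold, and 19% of all genes were up past 1.5-fold in that library. The 7 elongation factor genes had a median of 0.12 there. Of the poly(A)-binding proteins, Pabpc4 was at 0.93 and Pabpc1 at 0.50 in ER stress.

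The row Eif4a-ps4, left out as a marked pseudogene, held a level near that of Eif4a1, at 415 TPM in control, 509.7 in ER stress and 342 in hypoxia. It shares 25.6% of the words of 31 bases in Eif4a1, and how reads were divided between the 2 was not tested.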
